A study of Mus musculus with 6 samples.

Results

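The genes described here encode matrix metalloproteinases (Mmp), the Adamts proteases, the related Adamts-like (Adamtsl) glycoproteins and the tissue inhibitors of metalloproteinases (Timp). They were chosen by symbol among probe sets that list a single gene, with the probe set of the highest mean over all arrays used where a gene had several. This gave 49 of 22180 genes, made up of 22 Mmp, 18 Adamts, 5 Adamtsl and 4 Timp genes. The RNA came from embryonic fibroblasts of the mouse strain 129SV, taken at E14.5 from the dorsal body wall and measured on 6 Affymetrix arrays. All embryos were Ebf2(GFP)/+, with a green fluorescent protein (GFP) reporter on 1 allele of Ebf2. The cells were sorted for the mesenchymal receptor PDGFRα and divided by GFP into an Ebf2(GFP)+ group (GFP-positive, n = 3 arrays) and an Ebf2(GFP)- group (GFP-negative, n = 3 arrays). Both groups carry the reporter allele and both are PDGFRα-positive, so neither is a wild-type or unsorted tissue. Whether the replicates of a group are separate litters or pools of embryos is not stated, so the p-values cover the spread among these 6 samples alone, and that spread may be technical.

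Matrix metalloproteinases are zinc enzymes, secreted or bound to the membrane, that cleave collagens, other matrix proteins and surface proteins. Adamts proteases are secreted and divide by substrate: some cleave the large proteoglycans aggrecan and versican, some remove the N-propeptide of fibrillar procollagens, and others have substrates in fibrillin microfibrils or the blood. Adamts-like proteins share the non-catalytic domains of this family and have no protease domain. Timps bind the active site of metalloproteinases and block it. In embryonic mesenchyme these genes are known for remodelling the matrix around migrating and differentiating cells.

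Values are log2 expression as deposited. A change is the GFP-positive mean minus the GFP-negative mean, with its SE, and a gene passed at an adjusted p under 0.05 in limma's test over all 22180 genes (Benjamini-Hochberg). Ebf2, on whose reporter the cells were sorted, had a mean of 12.00 ± 0.06 in GFP-positive and 8.65 ± 0.53 in GFP-negative cells (SD, n = 3 each), and Pdgfra had 13.14 ± 0.09 and 12.95 ± 0.04 (SD, n = 3 each). Macrophage markers were lower in GFP-positive cells for 16 of 18 genes, with a mean level over the list of 7.08 to 7.98 in GFP-positive and 9.11 to 10.01 in GFP-negative arrays, and only Cd163 among them lay below the mark of dim genes in both groups. That count was 9 without GFP-positive replicate 1, 5 without GFP-positive replicate 2 and 7 without GFP-negative replicate 1. That mark is the 40th percentile of gene means, log2 6.78, since the files carry no detection calls. Chondrocyte markers were lower for 11 of 13 genes, with a mean level of 9.05 to 9.42 in GFP-positive and 10.5 to 10.6 in GFP-negative arrays. Of the 12 neutrophil and mast cell markers 10 were below the mark in both groups and none passed. The others were Cpa3, with means of 10.99 in GFP-positive and 11.25 in GFP-negative cells, and Kit, with 8.93 and 8.91. Over all genes 3.84% were called lower and 2.65% higher. Markers of mural cells were lower for 4 of 8 genes, and of Schwann and neural crest cells for 2 of 5. Of 6 osteoblast markers 2 were lower and 1, Phex, was higher (log2 change 2.44). Of 8 endothelial markers 1 was higher (Emcn) and 1 lower (Cdh5). Of 8 muscle markers 1 was higher (Tnnt1), of 5 epithelial markers 1 was lower (Cdh1), and none of 6 osteoclast markers passed. Among 8 fibroblast and sort genes Thy1 (−1.95), Twist2 (−1.67) and Lum (−0.34) were lower, and Ebf2 was higher. The part of other cell types in the results below was not tested, and in sorted bulk RNA fewer cells of a type and less RNA per cell cannot be told apart.

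Among the 49 genes, 10 passed the test, 4 of them higher (Adamtsl3, Adamts18, Adamts15 and Timp3) and 6 lower (Adamts20, Adamtsl5, Mmp17, Adamts3, Timp1 and Mmp27) in GFP-positive cells. That is 20.4% of the genes, against 6.49% of all genes tested, with 2.65% of all genes called higher and 3.84% called lower. Of the 10, 4 also differed by at least 2-fold, as 1.74% of all genes did. Changes ran from −1.09 to 1.77, and their median was −0.07, against 0.02 over all genes. The 3 largest increases and the largest decrease belonged to the Adamts and Adamtsl genes, in which opposite changes stood side by side. Of the 22 Mmp genes 2 fell and none rose (9.09%, against 6.49% of all genes), and their changes stayed between −0.70 and 0.30. Of these 22, 11 lay below the mark of dim genes in both groups, Mmp27 among them. That held for 1 of 18 Adamts and 0 of 5 Adamtsl genes, so the families are not compared at like signal. The arrays of the groups did not overlap for 24 of the 49 genes, 9 higher and 15 lower, where 22.0% of all genes showed no overlap, 12.3% higher and 9.78% lower. When same-numbered arrays were paired as a replicate block, 8 were higher and 8 lower, where 10.0% of all genes passed, 4.55% higher and 5.49% lower.

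**Figure D1:**
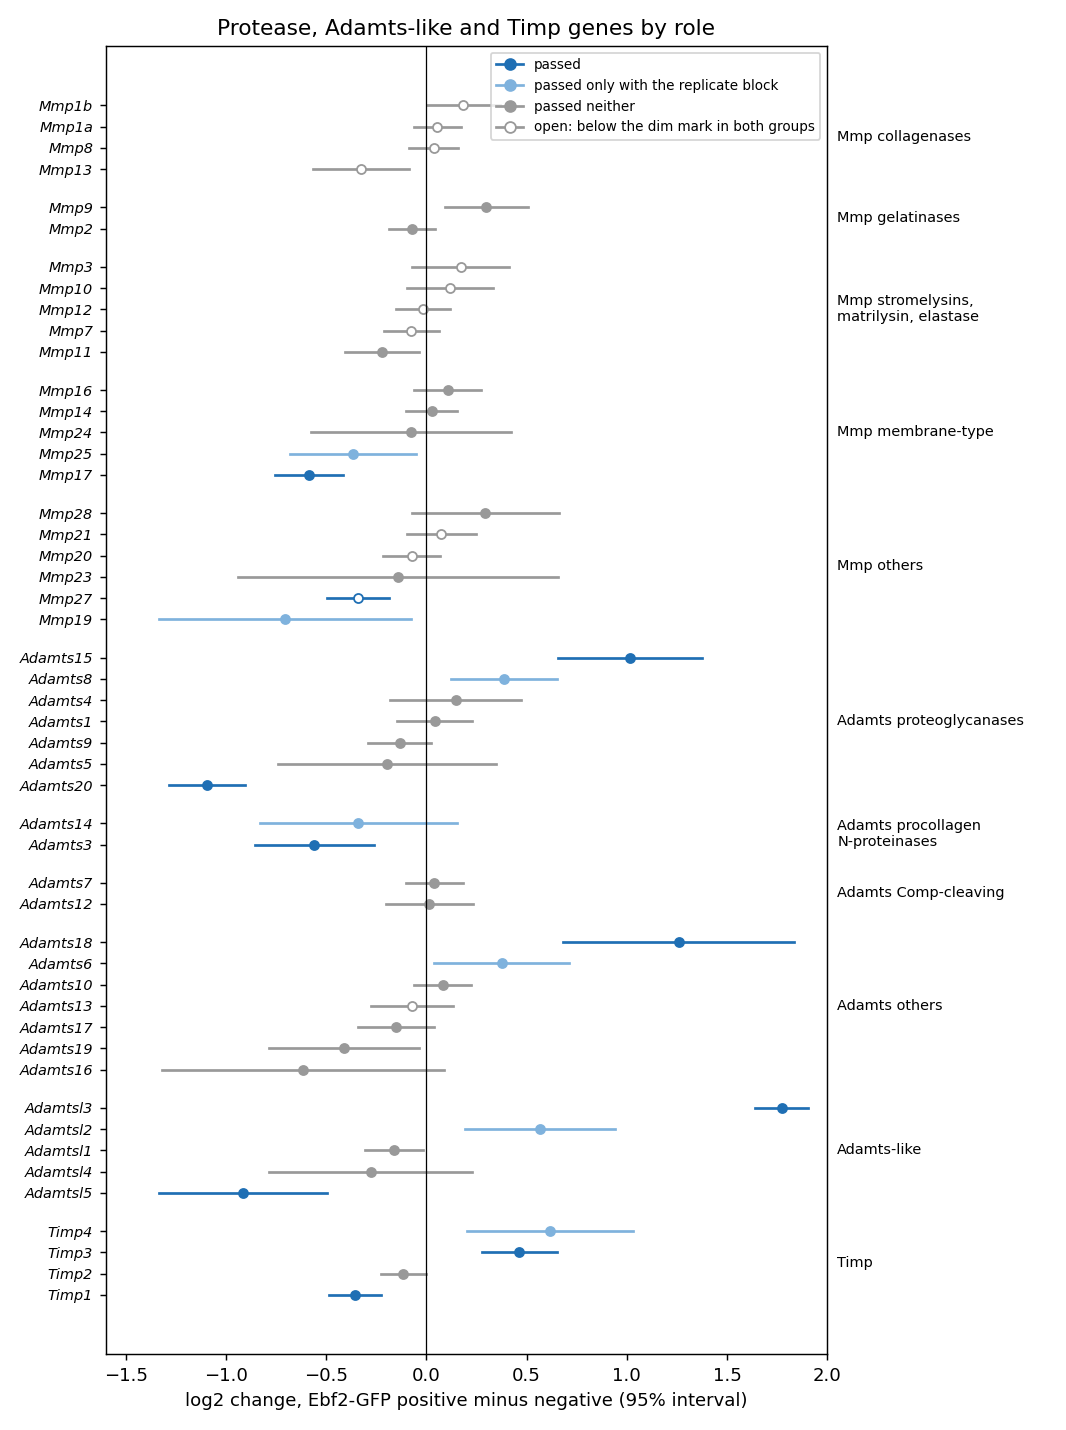
Log2 change with its 95% interval (x axis, GFP-positive minus GFP-negative, limma) for each of the 49 genes (rows), grouped by role. Dark blue genes passed the test, light blue ones passed only with the replicate block, and open circles mark genes below log2 6.78 in both groups. Adamtsl3 lies farthest to the right at 1.77 and Adamts20 farthest to the left at −1.09. The collagenases run from −0.33 to 0.19 and the group with the stromelysins from −0.22 to 0.17. All genes of these groups but Mmp11 are open circles, so their signal was low.

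Adamtsl3, which encodes a secreted matrix glycoprotein without protease activity, showed the largest change of the set. Its values were 9.93, 9.99 and 9.94 in GFP-positive replicates 1, 2 and 3, against 8.24, 8.18 and 8.12 in GFP-negative replicates 1, 2 and 3. The arrays within a group differed by little and the groups lay far apart. The gene rose 3.42-fold (log2 change 1.77 ± 0.06 SE, limma adjusted p = 9.94e-05). The call held without any 1 array, with an adjusted p of 0.000533 to 0.00266.

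Adamtsl5, whose product binds fibrillin microfibrils, moved the other way. It had 8.07, 8.13 and 8.75 in GFP-positive replicates 1, 2 and 3, and 9.15, 9.27 and 9.27 in GFP-negative replicates 1, 2 and 3. GFP-positive replicate 3 stood nearer to the GFP-negative arrays than the other two, and the groups did not overlap. The gene fell 1.88-fold (−0.91 ± 0.18 SE, limma adjusted p = 0.0300), and the call ended without any 1 array other than GFP-positive replicate 3 (adjusted p up to 0.118).

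Adamtsl2, another microfibril-associated member, had 8.58, 8.68 and 8.16 in GFP-positive replicates 1, 2 and 3, against 7.80, 8.12 and 7.79 in GFP-negative replicates 1, 2 and 3. The lowest GFP-positive array exceeded the highest GFP-negative one by a small margin. Its change of 0.57 ± 0.16 SE did not pass (limma adjusted p = 0.101) but did with the replicate block (0.0217) and without GFP-positive replicate 3 (0.0418). Adamtsl1 and Adamtsl4 had changes of −0.16 and −0.28 and passed neither fit (limma adjusted p = 0.219 and 0.587).

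Among the 7 proteoglycan-cleaving Adamts genes, 1 rose, 1 fell and 5 did not pass, where 2.65% of all genes were called higher and 3.84% lower. Adamts15, a versican- and aggrecan-cleaving protease, had 11.05, 10.67 and 10.87 in GFP-positive replicates 1, 2 and 3, against 9.93, 9.56 and 10.05 in GFP-negative replicates 1, 2 and 3. Replicate 2 was the lowest array in both groups, and every GFP-positive array lay above every GFP-negative one. The gene rose 2.02-fold (1.02 ± 0.15 SE, limma adjusted p = 0.0116), and the call ended without GFP-positive replicate 1 or 3 (adjusted p up to 0.0546).

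Adamts20 is the gene mutated in the belted mouse, whose pigment cells fail to colonise a band of the trunk. Its values were 7.22, 7.21 and 7.32 in GFP-positive replicates 1, 2 and 3, and 8.44, 8.40 and 8.195 in GFP-negative replicates 1, 2 and 3. All GFP-positive arrays lay well below all GFP-negative ones. The gene fell 2.13-fold (−1.09 ± 0.08 SE, limma adjusted p = 0.000969), and the call held without any 1 array (adjusted p of 0.00187 to 0.0107).

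Adamts5, a main aggrecanase of cartilage, had 10.70, 10.59 and 11.12 in GFP-positive replicates 1, 2 and 3, against 10.59, 10.97 and 11.43 in GFP-negative replicates 1, 2 and 3. The groups overlapped, and replicate 3 was the highest array in both. Its change of −0.20 ± 0.23 SE (limma adjusted p = 0.743) has a 95% interval of −0.74 to 0.35. With the replicate block its SE was 0.11, and it did not pass either (limma adjusted p = 0.355). Adamts1, Adamts4 and Adamts9 also did not pass, with changes of 0.04, 0.15 and −0.13 (limma adjusted p = 0.856, 0.674 and 0.368). Adamts8 had a change of 0.39 ± 0.11 SE, which passed only with the replicate block (limma adjusted p = 0.110 without it and 0.0191 with it) or after median centring (0.0423). Its other probe set, whose mean over the 6 arrays of 6.46 is below the mark of dim genes, had a change of 0.10 (limma adjusted p = 0.711 over all single-gene probe sets).

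Of the 2 measured procollagen N-proteinase genes, 1 fell and 1 did not pass, where 3.84% of all genes were called lower. Adamts3, the one that fell and a gene whose product also processes the lymphatic growth factor VEGF-C, had 8.07, 8.44 and 8.44 in GFP-positive replicates 1, 2 and 3, against 9.03, 8.73 and 8.87 in GFP-negative replicates 1, 2 and 3. The groups did not overlap, but the nearest arrays were close. The gene fell 1.47-fold (−0.56 ± 0.12 SE, limma adjusted p = 0.0486). This narrow call ended with the replicate block (0.0692), with a robust variance model (0.0504) and without any 1 array (adjusted p up to 0.128). Adamts14 had a change of −0.34 ± 0.21 SE (limma adjusted p = 0.482, or 0.0238 with the replicate block), with overlapping groups, and its other probe set changed by −0.04.

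Adamts18, a secreted protease of developing organs, showed the second largest increase and the widest spread of the genes that passed. It had 8.69, 7.66 and 8.23 in GFP-positive replicates 1, 2 and 3, against 6.95, 6.80 and 7.06 in GFP-negative replicates 1, 2 and 3. All GFP-negative arrays were close to the mark of dim genes, and no arrays overlapped. The gene rose 2.39-fold (1.26 ± 0.24 SE, limma adjusted p = 0.0294), and the call ended without any 1 array other than GFP-positive replicate 2 (adjusted p up to 0.114).

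Of the remaining Adamts genes, Adamts6, a relative of the fibrillin-binding Adamts10, had a change of 0.38 ± 0.14 SE with no overlap of the groups and passed only with the replicate block (limma adjusted p = 0.224 without it and 0.0262 with it). Adamts10 itself changed by 0.08 (limma adjusted p = 0.568). Adamts7 and Adamts12, which can cleave cartilage oligomeric matrix protein, changed by 0.04 and 0.02 (limma adjusted p = 0.805 and 0.959). Adamts16, with overlapping groups, and Adamts19, without overlap, had changes of −0.62 ± 0.30 and −0.41 ± 0.16 SE that did not pass (limma adjusted p = 0.357 and 0.232). Adamts17 changed by −0.15 (limma adjusted p = 0.408), and Adamts13, which cleaves von Willebrand factor in the blood, was below the mark of dim genes in both groups.

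**Figure D2:**
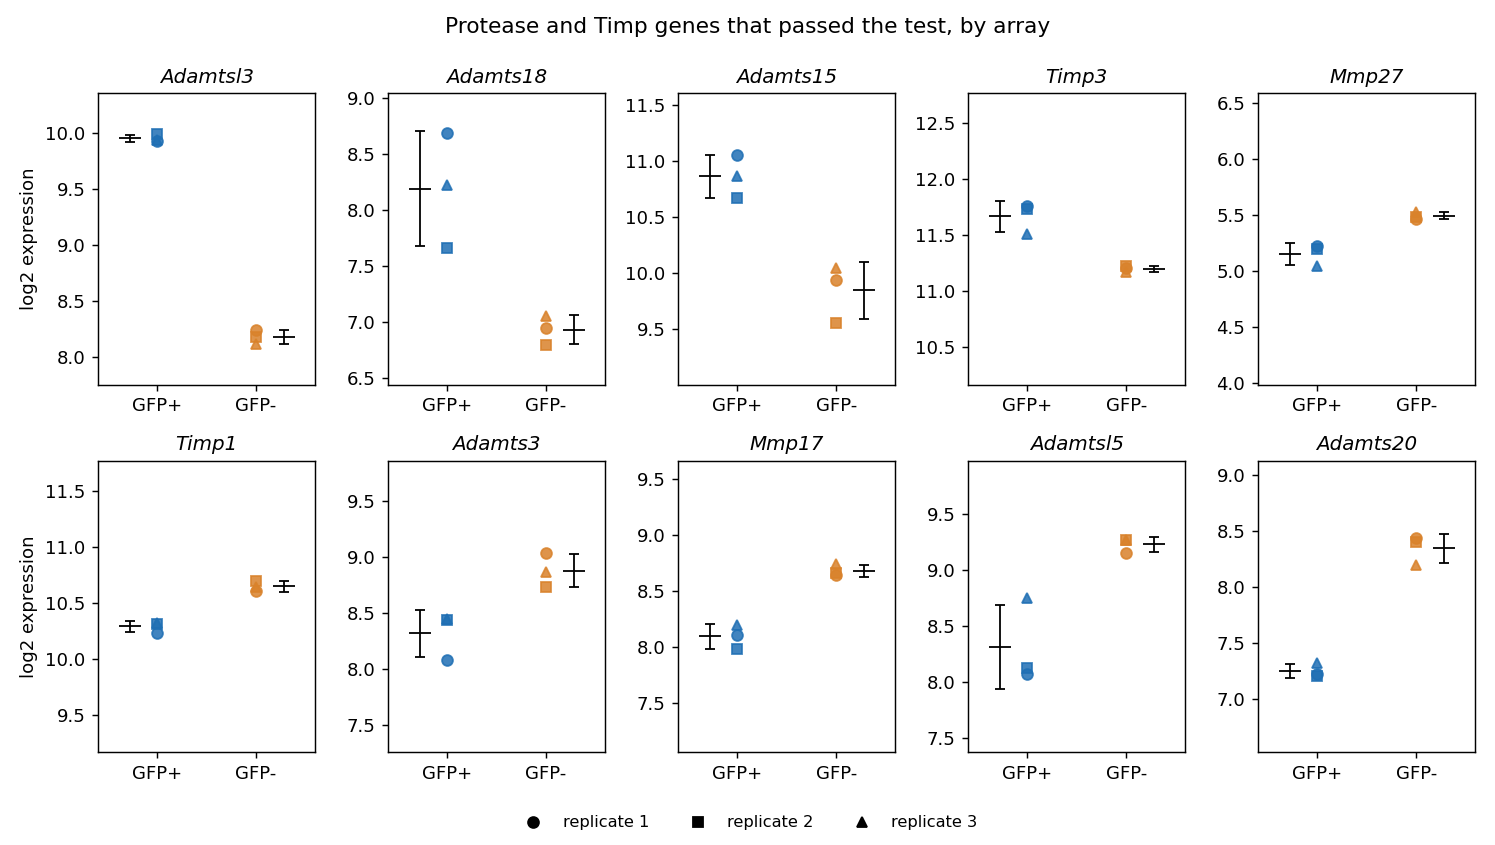
Log2 expression (y axis, each panel spanning the same range) of the 10 genes that passed, by array, with GFP-positive arrays left and GFP-negative arrays right. Symbols are replicates 1 to 3, and bars show the group mean and SD (n = 3). In none of the panels do the groups overlap, and Adamtsl3 and Timp1 show tight groups whereas Adamts18 spreads from 7.66 to 8.69 in GFP-positive cells.

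Of the 4 Timp genes 2 passed, where 6.49% of all genes did, and these 2 changed in opposite directions. Timp3, which binds to the matrix and inhibits Adam17 and aggrecanases besides the Mmps, had 11.76, 11.73 and 11.50 in GFP-positive replicates 1, 2 and 3, against 11.21, 11.22 and 11.17 in GFP-negative replicates 1, 2 and 3. It rose 1.38-fold (0.46 ± 0.08 SE, limma adjusted p = 0.0187). Every GFP-positive array was higher, with GFP-positive replicate 3 nearest to the other group, and the call ended without any 1 array other than that one (adjusted p up to 0.0835).

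Timp1, a soluble inhibitor of many Mmps, had 10.23, 10.31 and 10.32 in GFP-positive replicates 1, 2 and 3, against 10.60, 10.69 and 10.64 in GFP-negative replicates 1, 2 and 3. It fell 1.28-fold (−0.36 ± 0.05 SE, limma adjusted p = 0.0135). The groups were tight and apart, although the call ended without GFP-positive replicate 1 or 2 (adjusted p up to 0.0594).

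Timp4 had 7.69, 7.46 and 7.74 in GFP-positive replicates 1, 2 and 3, against 6.87, 6.77 and 7.41 in GFP-negative replicates 1, 2 and 3. Its groups nearly touched, since GFP-negative replicate 3 was close to GFP-positive replicate 2. The change of 0.62 ± 0.17 SE did not pass (limma adjusted p = 0.103), but did with the replicate block (0.0259) and without GFP-negative replicate 3 (0.0154).

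Timp2, which takes part in activating pro-Mmp2 together with Mmp14, had 12.47, 12.47 and 12.50 in GFP-positive replicates 1, 2 and 3, against 12.58, 12.58 and 12.62 in GFP-negative replicates 1, 2 and 3. The groups were separate by a small margin. Its change of −0.11 ± 0.05 SE did not pass (limma adjusted p = 0.280). Mmp2 and Mmp14, the other genes of that activation step, were likewise measured with little spread. Mmp2, gelatinase A, had 13.16, 13.18 and 13.18 in GFP-positive replicates 1, 2 and 3, against 13.27, 13.21 and 13.25 in GFP-negative replicates 1, 2 and 3.

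Mmp14, a membrane-type collagenase, had 12.24, 12.21 and 12.31 in GFP-positive replicates 1, 2 and 3, against 12.22, 12.19 and 12.27 in GFP-negative replicates 1, 2 and 3. The groups were narrowly apart for Mmp2 and overlapped for Mmp14, and neither passed (limma adjusted p = 0.532 for Mmp2 and 0.868 for Mmp14). The 95% intervals of their log2 changes were −0.19 to 0.04 for Mmp2 and −0.10 to 0.16 for Mmp14.

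The other membrane-type genes showed 1 decrease, where 3.84% of all genes were called lower. Mmp17, which is anchored to the membrane by a lipid (GPI) tail, had 8.11, 7.98 and 8.19 in GFP-positive replicates 1, 2 and 3, against 8.64, 8.65 and 8.74 in GFP-negative replicates 1, 2 and 3. It fell 1.5-fold (−0.58 ± 0.07 SE, limma adjusted p = 0.00560). All GFP-positive arrays were lower, and the call held without any 1 array (adjusted p of 0.0157 to 0.0327). Mmp25, the other GPI-anchored member, had a change of −0.37 ± 0.13 SE with no overlap of the groups and passed only with the replicate block (limma adjusted p = 0.203 without it and 0.0159 with it). Its mean of 6.79 in GFP-positive cells was at the mark of dim genes. The transmembrane members Mmp16 and Mmp24 changed by 0.11 and −0.08 (limma adjusted p = 0.522 and 0.899).

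Mmp9, gelatinase B, had 9.07, 9.22 and 9.35 in GFP-positive replicates 1, 2 and 3, against 9.02, 8.83 and 8.88 in GFP-negative replicates 1, 2 and 3. The groups were separate, with GFP-positive replicate 1 and GFP-negative replicate 1 close together. Its change of 0.30 ± 0.09 SE did not pass (limma adjusted p = 0.117, or 0.123 with the replicate block). Mmp9 is also a product of neutrophils, macrophages and osteoclasts, and macrophage markers were lower in GFP-positive cells, whose part here was not tested.

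Mmp19, a secreted member, had 7.60, 7.94 and 8.27 in GFP-positive replicates 1, 2 and 3, against 8.14, 8.68 and 9.09 in GFP-negative replicates 1, 2 and 3. The groups overlapped, because replicate 1 was low and replicate 3 high in both of them. Within same-numbered arrays the differences were −0.54, −0.74 and −0.83 for replicates 1, 2 and 3. The change of −0.70 ± 0.26 SE did not pass (limma adjusted p = 0.224), whereas with the replicate block its SE was 0.07 and it passed (0.00663). Mmp11, Mmp23 and Mmp28 had changes of −0.22, −0.14 and 0.29 and passed neither fit (limma adjusted p = 0.190, 0.884 and 0.401).

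**Figure D3:**
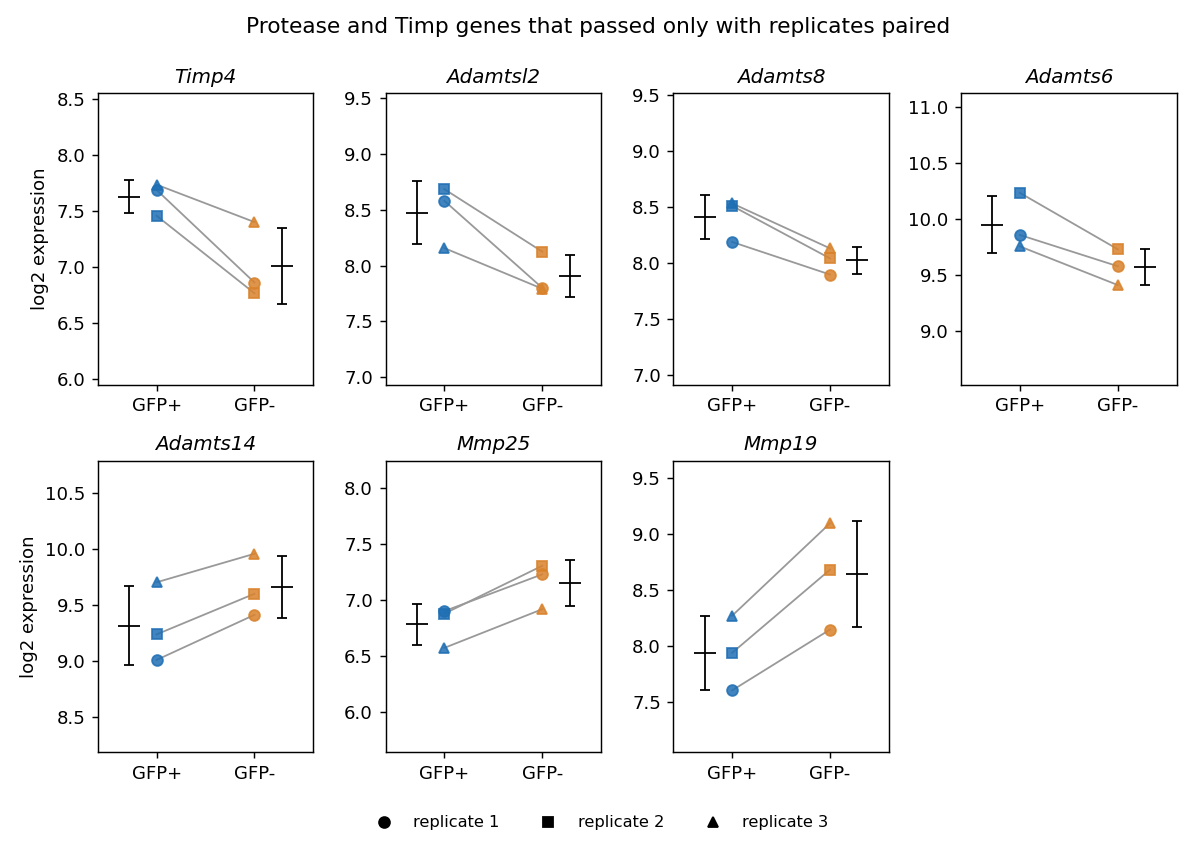
Log2 expression (y axis, each panel spanning the same range) of the 7 genes that passed only with the replicate number as a block, with GFP-positive arrays left and GFP-negative arrays right. Grey lines join arrays of the same replicate number, and bars show the group mean and SD (n = 3). In each panel the 3 lines slope the same way. The arrays of a group spread most for Mmp19 (SD 0.48 in GFP-negative cells), and the groups overlap only for Mmp19 and Adamts14.

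The order of replicates 1, 2 and 3 was the same in both groups for 16 of the 49 genes, where 24.5% of all genes showed the same order. Replicate 3 was the highest array in both groups for 15 genes, as it was for 12.8% of all genes. The 15 include Mmp19, Mmp23, Adamts5, Adamts14 and Adamts16. The largest SD within a group was 0.56, for Mmp23. The labels do not say what a replicate number shares.

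The Mmp genes on chromosome 9 gave low values in both groups. Mmp1a, Mmp1b, Mmp3, Mmp7, Mmp8, Mmp10, Mmp12, Mmp13, Mmp20 and Mmp27 are 10 of the 12 genes whose mean lay below log2 6.78 in both groups, together with Mmp21 and Adamts13. Their group encodes interstitial collagenases (Mmp1a, Mmp1b, Mmp8 and Mmp13), stromelysins (Mmp3 and Mmp10), matrilysin (Mmp7), macrophage elastase (Mmp12) and the enamel protease enamelysin (Mmp20). Changes of the 10 genes ran from −0.34 to 0.19, and 1 of them, Mmp27, passed, where 6.49% of all genes did. Mmp27 fell 1.27-fold (−0.34 ± 0.06 SE, limma adjusted p = 0.0293) with means of 5.16 ± 0.10 in GFP-positive and 5.50 ± 0.03 in GFP-negative cells (SD, n = 3 each), both below the mark. That call ended after median centring (adjusted p = 0.0588) and without any 1 array (up to 0.0914).

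Mmp13, the main collagenase of hypertrophic cartilage and bone, had 4.68, 4.76 and 4.64 in GFP-positive replicates 1, 2 and 3, against 4.95, 4.87 and 5.23 in GFP-negative replicates 1, 2 and 3. All GFP-positive arrays were lower, at a level near the bottom of the array's range, and its change of −0.33 ± 0.10 SE did not pass (limma adjusted p = 0.137). Mmp12 had means of 5.27 ± 0.01 in GFP-positive and 5.28 ± 0.07 in GFP-negative cells (SD, n = 3 each) and a change of −0.02 (limma adjusted p = 0.917). Macrophage markers differed in the same arrays. For example, Adgre1 had 6.08, 6.98 and 7.70 in GFP-positive replicates 1, 2 and 3, against 10.3, 9.59 and 10.8 in GFP-negative replicates 1, 2 and 3. In 8 of the 49 genes some arrays held exactly the same value, among them Mmp12 and also Timp2, which is far above the mark.

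The upstream sequences of these genes were compared with those of the other genes of the set, as a description. RefSeq promoters (GRCm38.p6) were available for 34 of the 49 genes, and the 250 bases before each start were searched on both strands for the AP-1 motif TGANTCA, which reads the same on both strands. Its form TGAGTCA, which is TGACTCA on the other strand, is the classical phorbol ester and cytokine response element of collagenase and stromelysin promoters. TGANTCA was found upstream of 8 of the 10 Mmp genes on chromosome 9 and of 0 of the other 24 genes. A gene counted if any of its windows matched, and Mmp7 and Mmp12 each have a second window without the motif. By window, it was found in 8 of 37 windows of the set, against 6.75% of all 32851 promoter windows. A match is a description of the letters and not evidence of binding. The 8 matches began 35 to 95 bases before the start. Of these, 6 read TGAGTCA and 1, that of Mmp13, reads TGACTCA, the same site on the other strand. Mmp20 has TGAATCA, which is not that form. They are printed with 20 bases on either side and the motif in capitals. The windows are Mmp13 (chr9:7272459-7272505, + strand), Mmp12 (chr9:7347310-7347356, +), Mmp1b (chr9:7388093-7388139, −), Mmp3 (chr9:7445756-7445802, +), Mmp1a (chr9:7464048-7464094, +), Mmp10 (chr9:7502259-7502305, +), Mmp20 (chr9:7628116-7628162, +) and Mmp7 (chr9:7692007-7692053, +).
Mmp13: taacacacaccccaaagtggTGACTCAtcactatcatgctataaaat
Mmp12: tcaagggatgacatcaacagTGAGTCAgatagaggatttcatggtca
Mmp1b: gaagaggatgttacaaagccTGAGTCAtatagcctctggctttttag
Mmp3: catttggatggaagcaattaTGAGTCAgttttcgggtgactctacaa
Mmp1a: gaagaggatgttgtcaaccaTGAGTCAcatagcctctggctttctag
Mmp10: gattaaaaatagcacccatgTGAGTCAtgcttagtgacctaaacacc
Mmp20: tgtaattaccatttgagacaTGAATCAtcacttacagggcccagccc
Mmp7: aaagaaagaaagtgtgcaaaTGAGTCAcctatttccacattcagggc

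The promoters of the genes with the largest change in each direction, Adamtsl3 (chr7:82335444-82335693, + strand) and Adamts20 (chr15:94404351-94404600, − strand), are shown with CpG dinucleotides in capitals. Their 250 bases hold 39 and 32 CpGs at a GC content of 80.0% and 76.4%, whereas the windows of the Mmp genes on chromosome 9 hold 0 to 7 CpGs. Windows as rich in CpG also belong to genes with little change or a narrow call, with 33 CpGs for Mmp24 and 35 each for Adamts14 and Adamts3. Neither holds the AP-1 motif, the EBF motif (TCCC and GGGA with 2 bases of any kind between them) or the RUNX motif TGTGGT, both searched on both strands. The EBF motif, a recognition sequence of the factor family that includes Ebf2, was found in 0.779% of all windows. In the set it was found in 1 of 37 windows, that of Mmp14. The RUNX motif was found in 14.0% of all windows and in 6 of 37 windows of the set, upstream of 6 genes, among them Mmp13 and Mmp27. No match says only that these letters are not in the window.
Adamtsl3: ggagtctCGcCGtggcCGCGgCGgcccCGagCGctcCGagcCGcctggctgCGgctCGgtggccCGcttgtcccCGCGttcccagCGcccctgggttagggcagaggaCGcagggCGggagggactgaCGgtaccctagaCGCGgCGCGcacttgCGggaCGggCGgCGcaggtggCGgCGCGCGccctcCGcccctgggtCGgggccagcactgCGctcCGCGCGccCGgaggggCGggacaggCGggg
Adamts20: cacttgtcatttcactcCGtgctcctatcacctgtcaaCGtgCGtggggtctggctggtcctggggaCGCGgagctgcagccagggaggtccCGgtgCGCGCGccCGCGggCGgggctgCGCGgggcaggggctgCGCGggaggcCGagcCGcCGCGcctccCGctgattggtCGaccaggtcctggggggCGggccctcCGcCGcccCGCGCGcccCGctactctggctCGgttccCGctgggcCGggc

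Other genes that activate, inhibit or accompany these proteases were read from the same fit. Of 20 measured activators and inhibitors, 4 fell and none rose, with a median change of 0.01. With the replicate block 7 were lower and 1 was higher. Over all genes 3.84% were called lower and 2.65% higher, or 5.49% and 4.55% with the block. A2m, the broad protease inhibitor alpha-2-macroglobulin, fell by 1.62 ± 0.05 SE on the log2 scale (limma adjusted p = 9.94e-05). Reck, a membrane-anchored inhibitor of Mmps, fell by 0.56 ± 0.06 SE (limma adjusted p = 0.00450), and Spock3, a testican proteoglycan, fell by 0.63 ± 0.07 SE (limma adjusted p = 0.00341). The last of the 4, the heparan sulphate proteoglycan Sdc4, fell by 1.39 ± 0.06 SE (limma adjusted p = 0.000276). The proprotein convertase Furin, which activates Mmp and Adamts proforms, changed by 0.09 (limma adjusted p = 0.565). The urokinase gene Plau had a change of −0.97 ± 0.30 SE, which passed only with the replicate block (limma adjusted p = 0.142 without it and 0.0283 with it). So did its receptor gene Plaur (−0.41, 0.0104 with the block) and the proprotein convertase genes Pcsk6 (−0.42, 0.0106) and Pcsk5 (0.26, 0.0388).

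Of 10 genes of the Adam family, 1 rose and none fell, whereas with the replicate block 2 were higher and 1 was lower. Over all genes 6.49% passed, or 10.0% with the block. The gene that rose without the block, Adam19, which is known from heart and neuromuscular development, had a change of 0.76 ± 0.06 SE (limma adjusted p = 0.00142). Adam12 (0.35) and Adam33 (−0.49) passed only with the block (limma adjusted p = 0.0222 and 0.00697, against 0.302 and 0.310 without it). Among 13 genes of astacins, cathepsins and the procollagen C-proteinase enhancers Pcolce and Pcolce2, 2 rose and 4 fell. Over all genes 2.65% were called higher and 3.84% lower. With any 1 array left out 1 was higher, and 2 were lower without GFP-negative replicate 1 or any 1 GFP-positive array. Tll2, of the Bmp1 and tolloid family of astacin proteases, rose by 1.298 ± 0.08 SE (limma adjusted p = 0.000554) and the related Tll1 by 0.69 ± 0.15 SE (limma adjusted p = 0.0431). Pcolce2, which encodes an enhancer of procollagen C-proteinase, fell by 0.77 ± 0.09 SE (limma adjusted p = 0.00463). The cathepsin gene Ctsb fell by 0.40 ± 0.08 SE (limma adjusted p = 0.0283). Ctsd, another cathepsin gene, passed only with the replicate block (−0.35, limma adjusted p = 0.0859 without it and 0.0242 with it). The cathepsin genes Ctss and Ctsh fell by 1.81 ± 0.32 and 1.47 ± 0.15 SE (limma adjusted p = 0.0233 and 0.00339). Both are abundant in macrophages, whose markers were lower in the same arrays. The part of macrophages in the changes of Ctss, Ctsh, Ctsb and Ctsd was not tested.

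Among 20 measured substrates, 1 rose and 6 fell, with a median change of −0.07. Over all genes 2.65% were called higher and 3.84% lower. Without GFP-positive replicate 1 or GFP-negative replicate 2, 3 were lower. Acan, the aggrecan of cartilage, fell by 2.04 ± 0.14 SE (limma adjusted p = 0.000746), and the cartilage genes Matn3 and Col2a1 fell by 2.20 ± 0.08 and 1.49 ± 0.13 SE (limma adjusted p = 0.000171 and 0.00153). Comp, Ncan and Bcan also fell, by 1.10, 0.62 and 0.43 (limma adjusted p = 0.0338, 0.0289 and 0.0311). Bcan lay below the mark of dim genes in both groups. Vcan, the versican of loose mesenchyme, rose by 0.35 ± 0.05 SE (limma adjusted p = 0.00867). The fibrillar collagen genes Col1a1 and Col3a1 changed by −0.08 and 0.03 (limma adjusted p = 0.490 and 0.845), and the fibrillin gene Fbn2 by −0.03 (limma adjusted p = 0.838). Acan, Col2a1 and Matn3 are also among the chondrocyte markers.

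**Figure D4:**
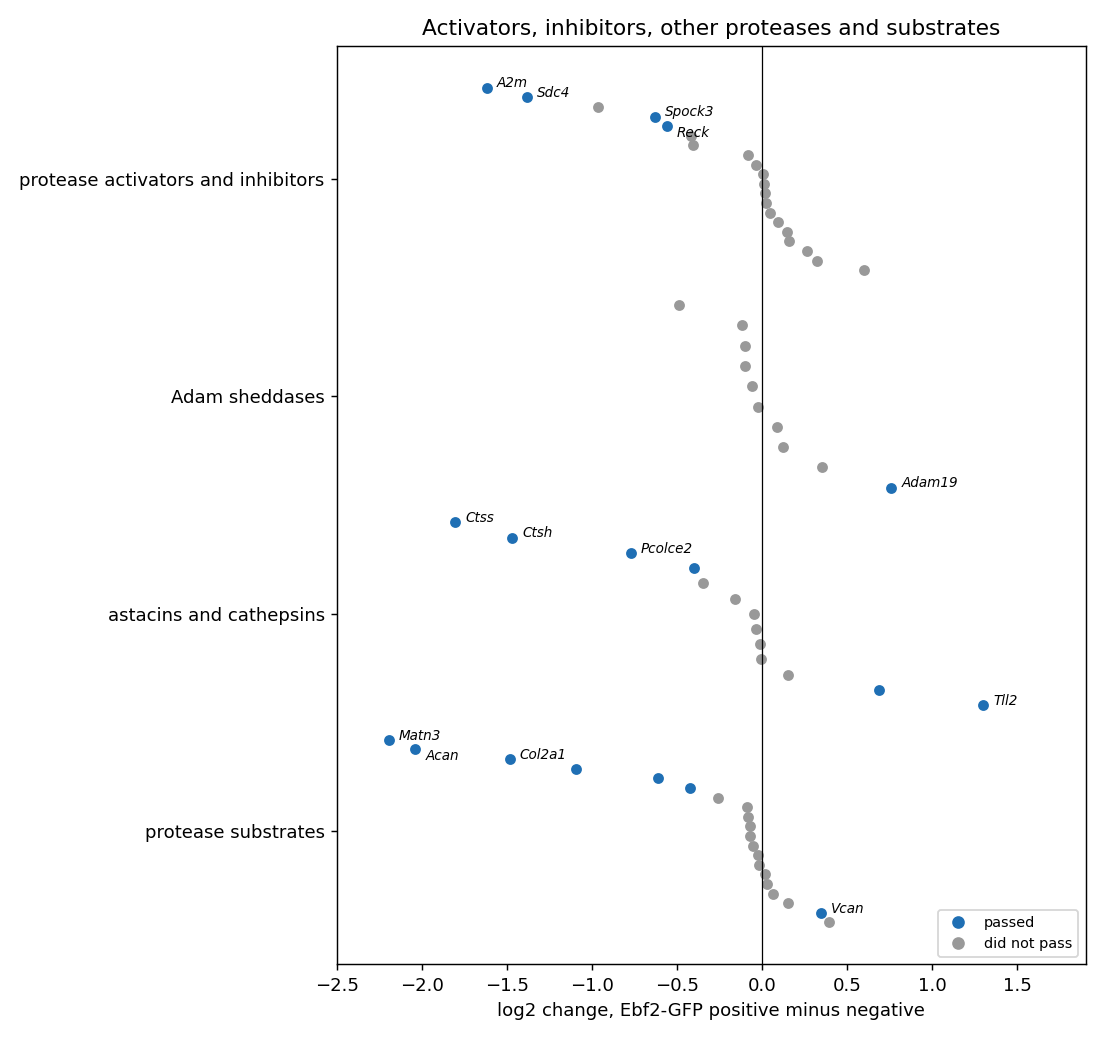
Log2 change (x axis, GFP-positive minus GFP-negative) of the 63 measured genes of the other lists (rows, 1 point per gene). The rows are activators and inhibitors, Adam genes (labelled Adam sheddases), astacins and cathepsins (with Pcolce and Pcolce2), and substrates. Blue points passed limma's test, and up to 4 genes per list with the smallest p are named. Passing inhibitors lie left of 0, Tll2 and Adam19 lie right, and the cartilage substrates reach −2.20.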

How the data were processed

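Total RNA of 6 sorted samples was hybridised to Affymetrix arrays. The authors deposited 1 log2 expression value per probe set and array. RMA and limma are named in the submitters' processing notes, while their versions and any filter are not given. The log2 scale was read from the values (3.41 to 14.32, with array medians of 6.657 to 6.712). A shift common to most genes cannot be seen after such normalization. Precision is limited by the number of arrays.

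The platform table lists 1 gene for 23521 of 41345 probe sets, and only these were named, with symbols brought up to date by gene identifier in RefSeq genes of GRCm38.p6 (23328 matched). RefSeq also gave chromosomes and promoter sequences. Of several probe sets for a gene (1082 genes, 4 of them described here) the one with the highest mean was kept. A probe set listing Mmp24 with other genes was left out. Dim genes were kept.

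Groups were compared over the 6 arrays with limma 3.58.1 (lmFit, eBayes) under R 4.3.3, and p-values were adjusted by Benjamini-Hochberg over 22180 genes. The procedure was tested on simulated data. Genes, lists and motifs were chosen with earlier results of these data known. By rule, each Mmp, Adamts, Adamtsl or Timp gene that passed with or without the block is named. Values by array are given for those changed by at least 0.5, for all Timps and for Mmp2, Mmp9, Mmp13, Mmp14 and Adamts5. From each other list up to 4 passing genes with the smallest p are named. Furin, Plau, Plaur, Pcsk5, Pcsk6, Adam12, Adam33, Tll1, Ctsb, Ctsd, Col1a1, Col3a1 and Fbn2 fall outside this rule and were picked after their values were seen. The same holds for Comp, Ncan, Bcan, Cpa3 and Kit.

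Both groups use replicate numbers 1 to 3. Over genes, the deviations from the group mean correlated between arrays of equal number (0.314 to 0.519, all 3 above 0.1). Between the other arrays the values were −0.384 to −0.024. Deviations within a group cancel out, so the lower values between unequal numbers follow from the higher ones and are no separate evidence of pairing. The fit reported leaves the replicate numbers out. As an alternative, the numbers were treated as pairs (the replicate block), from the data alone. The blocked result is printed where it changes a call of a protease, Timp, activator, inhibitor or substrate gene. Other alternatives were quantile normalization, median centring, removal of dim genes, the mean of probe sets or each one separately, trended or robust eBayes, weights per array, stricter thresholds and leaving out single arrays. Figures were drawn with matplotlib 3.10.9.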

Additional observations from a re-analysis of the deposited data

How the results depend on the processing

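Of 49 genes 4 were higher and 6 lower in the fit reported. With the replicate block these counts were 8 and 8, at an adjusted p under 0.01 they were 1 and 2, and with an at least 2-fold change also required they were 3 and 1. Leaving out 1 array at a time gave 1 to 3 higher and 2 to 5 lower genes, fewest without GFP-positive replicate 1 (1 higher and 2 lower), and 2 lower also without GFP-positive replicate 2. Over all genes 1439 passed, against 2228 with the block, 539 at an adjusted p under 0.01, 386 with an at least 2-fold change and 629 to 1067 with 1 array left out. The other settings gave 4 or 5 higher and 5 or 6 lower genes. The block added Adamts6, Adamts8, Adamts14, Adamtsl2, Mmp19, Mmp25 and Timp4 and ended the call of Adamts3, and changed no other call among the 23 genes followed through all settings. Only Adamtsl3, Adamts20 and Mmp17 passed under every alternative fit and with any 1 array left out. The sign turned for Adamts5 with 1 array left out (changes of −0.398 to 0.0195, the highest without GFP-negative replicate 3) and for Mmp14 (−0.00162 to 0.0483, the lowest without GFP-positive replicate 3), neither of which had passed. The median change of the Mmp genes, −0.04, was 0.01 after median centring, and that of the Adamts genes, −0.03, was then 0.03, so neither sign is settled. Median centring moved the median change of all genes to 0.07, against 0.02 as deposited. At an adjusted p under 0.01, 3 of the 16 lower macrophage markers and 3 of the 6 lower substrates passed. The cause of these shifts was not tested. The number of arrays limits what can be called, and the low signal of the Mmp genes on chromosome 9 limits what can be said of them.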
